A study of Mus musculus with 10 samples.

Results

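Cytotoxic lymphocytes kill target cells by secreting granules that hold perforin and granzymes, or by engaging the death receptor Fas with Fas ligand. The 10 genes described here, of 23005 genes with a RefSeq transcript in both short-read files, are a granule membrane protein (Nkg7), granule proteases and their inhibitor (Ctsw, Cst7), the pore-forming protein perforin (Prf1), the granzymes Gzma, Gzmb and Gzmm, the granule proteoglycan Srgn, the granzyme inhibitor Serpinb9 and Fas ligand (Fasl). They were taken as a fixed list of symbols, chosen with earlier results of these data known. A gene's short-read value was the summed FPKM (a level of sequenced fragments scaled for transcript length and library depth) of its RefSeq transcripts and of assembled spliced transcripts that shared an intron with that gene and no other.

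Mature single-positive (SP) T cells of the thymus were compared between the helper lineage (CD4SP) and the cytotoxic lineage (CD8SP). Thymi of C57BL/6 mice, 6 to 8 weeks of age and with no allele or agent named, were pooled in sets of 2 or 3, depleted of cells carrying the other coreceptor with magnetic beads, and sorted as TCRβ+ CD24- cells that were CD4+ CD8- or CD8+ CD4-. Each lineage gave 1 PacBio long-read library and an Illumina rRNA-depleted short-read library whose 4 lanes stood together in 1 deposited file. With 1 value per gene and lineage there was no replicate and no p-value, and the interval beside each FPKM value is the deposited one, which covers the estimation of that library only.

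Perforin opens pores through which granzymes enter the target cell. Serglycin, the product of Srgn, is the proteoglycan on which granule proteins are stored, Nkg7 takes part in the release of granules, and cystatin F, the product of Cst7, inhibits the cysteine proteases that process granzymes. Granule genes are usually studied in activated CD8 T cells and natural killer cells, whereas the thymocytes here were sorted without stimulation.

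The labelled lineages matched their coreceptors. Cd4 stood at 107 FPKM in CD4SP and 1.69 FPKM in CD8SP, Cd8a at 10.9 and 241 FPKM, Cd8b1 at 32.9 and 505 FPKM, and Cd3e, shared by both, at 169.8 and 170.3 FPKM. Cd24a, the product of which was used to remove immature cells, was listed at 11.8 and 10.1 FPKM. In sorted populations a gene expressed by fewer cells and a gene with less RNA per cell cannot be told apart.

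A gene was counted as higher in 1 lineage when its higher value was at least 1 FPKM, the ratio was at least 2-fold after adding 0.1 FPKM to both values, and the deposited intervals did not overlap. By this rule Nkg7, Cst7, Ctsw and Prf1 were higher in CD8SP, Gzmb and Fasl were higher in CD4SP, Srgn, Serpinb9 and Gzma were not called, and Gzmm stayed under 1 FPKM in both libraries. The 4 of 10 genes higher in CD8SP stand beside 10.02% of the 9620 genes that reached 1 FPKM in at least 1 library. The 2 of 10 higher in CD4SP stand beside 4.76% (14.8% in either direction). Of the 10 genes, 9 reached that level. Because the 10 were chosen with earlier results of these data known, these shares are a description only. Log2 ratios of CD8SP to CD4SP had a median of 0.22 over those 9620 genes and of 0.54 over the 10 cytotoxic genes. When the CD8SP values were divided by 1.16 to bring the median gene present in both libraries to no difference, which lowered it by 0.21 on the log2 scale, the calls over all genes shifted from 964 higher in CD8SP and 458 higher in CD4SP to 656 (6.88%) and 637 (6.68%). The calls of the 10 genes stayed as they were under that scaling.

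**Figure D1:**
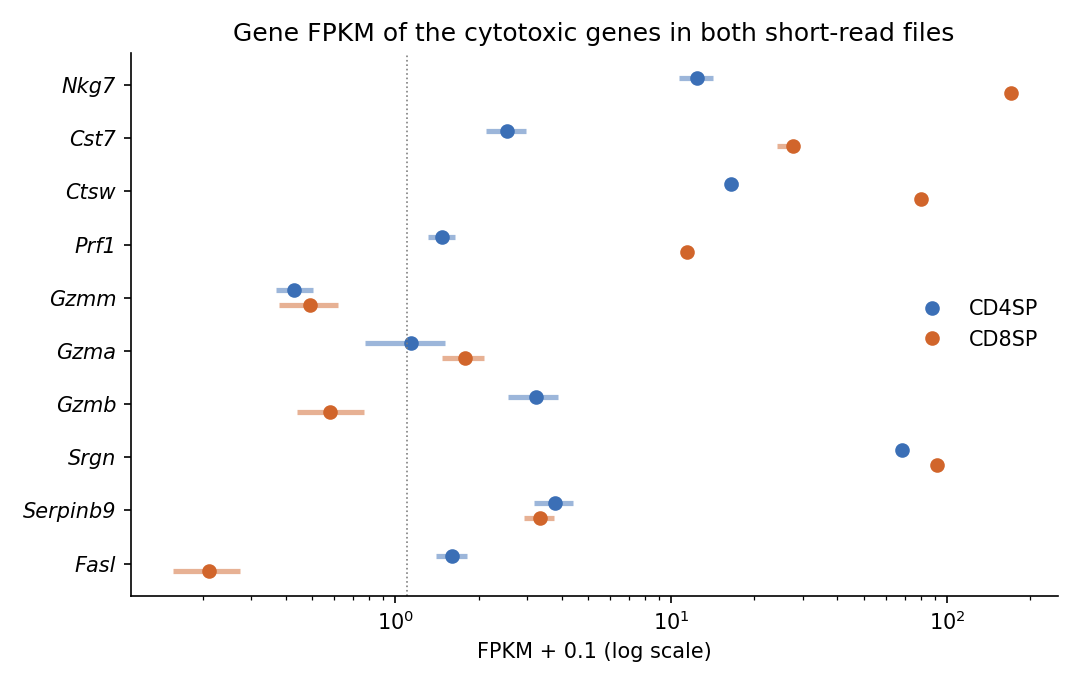
Gene FPKM, with 0.1 added, of the 10 genes on a log axis, with CD4SP in blue and CD8SP in orange. Points are the pooled values, bars the deposited intervals, and the dotted line the minimum of 1 FPKM; Nkg7, Cst7, Ctsw and Prf1 lie to the right in CD8SP, and Gzmb and Fasl lie to the right in CD4SP.

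The genes spanned a wide range of levels. Their summed FPKM was 110.4 in CD4SP and 386 in CD8SP, and Nkg7 and Srgn together made up 72.9% and 67.6% of those sums. Among genes at 1 FPKM or more, Nkg7 ranked 75 of 9200 in CD8SP, Srgn 190 and Ctsw 225, and Prf1 ranked 3299. In CD4SP, Srgn ranked 191 of 9119 genes, Ctsw 1838 and Nkg7 2623, whereas Prf1 ranked 8642 and Gzma 9075. Granule genes were thus found both near the top and near the bottom of the expressed range in the same library.

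**Figure D2:**
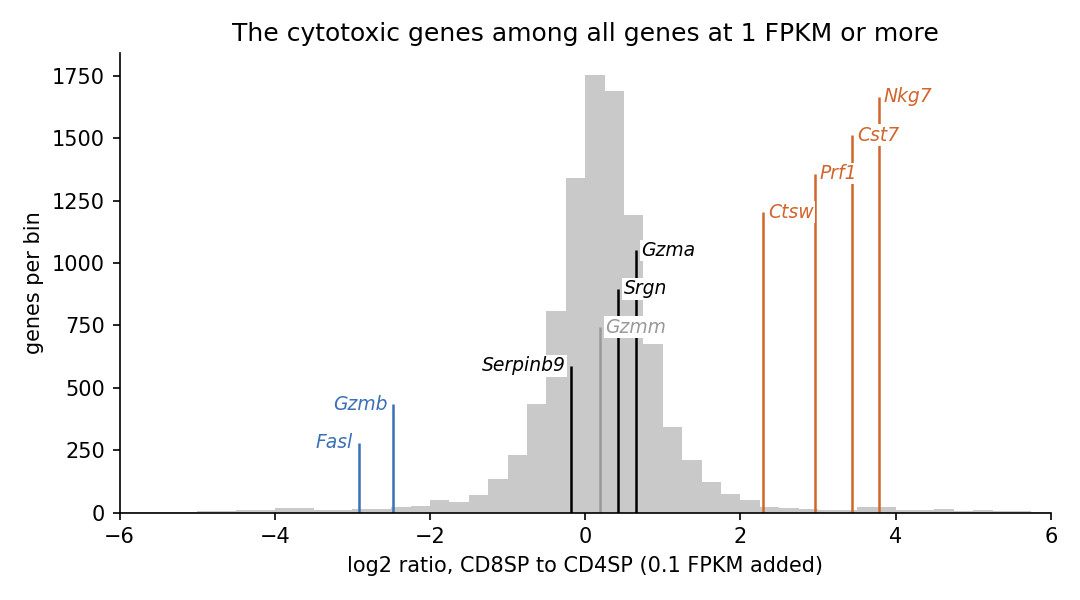
Number of genes per bin of log2 ratio of CD8SP to CD4SP, for the 9620 genes that reached 1 FPKM in at least 1 library (grey), with the 10 genes as vertical lines (orange, higher in CD8SP; blue, higher in CD4SP; black, not called; grey line, under 1 FPKM). Line heights only keep the names apart; 6 of the 10 genes lie outside 2-fold and met the call.

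Nkg7 (ENSMUSG00000004612.9, GRCm38 chr7:43437073-43438249, plus strand, 4 exons) was listed at 12.3 FPKM (interval 10.5 to 14.03) in CD4SP and 169.6 FPKM (interval 164 to 176) in CD8SP. The listed CD8SP FPKM was 13.8-fold the CD4SP FPKM. The log2 ratio, after adding 0.1 FPKM to both values, was 3.78, or 3.57 after median scaling. Fold values of the other genes are likewise ratios of the listed FPKM, and their log2 ratios include the added 0.1 FPKM. All 3 RefSeq introns showed the difference, with log2 ratios between 3.78 and 3.91. In CD8SP the whole value sat on the RefSeq transcript, and in CD4SP 91.6% did. The rest of the CD4SP value was a 2-exon assembled form at 1.03 FPKM. Outside the gene sum, CD4SP also held a pair of assembled 2-exon forms at 0.409 and 0.153 FPKM that began 150 bases upstream of the RefSeq start.

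Cst7 (chr2:150570415-150578944, plus strand, 4 exons) was at 2.44 FPKM (interval 2.04 to 2.86) in CD4SP and 27.5 FPKM in CD8SP, 11.2-fold higher and a log2 ratio of 3.44. The deposited CD8SP interval ran from 24.1 to 27.2 and so lay just under its own value. Each of the 3 RefSeq introns was higher in CD8SP, by a log2 ratio of 3.44 to 3.54. A 5-exon assembled form that ran 2979 bases past the RefSeq 3′ end gave 0.178 FPKM, or 7.28%, of the CD4SP value, and the remainder was the RefSeq transcript. Cst7 and Nkg7, which were both at moderate or low level in CD4SP, were the 2 genes of the 10 with the largest ratios towards CD8SP.

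Ctsw (chr19:5465043-5468507, minus strand, 10 exons) encodes cathepsin W, a cysteine protease known from CD8 T cells and natural killer cells. It stood at 16.4 FPKM (interval 15.5 to 17.3) in CD4SP and 80.5 FPKM (interval 78.9 to 83.5) in CD8SP, 4.92-fold higher and a log2 ratio of 2.29. The 9 introns had log2 ratios of 2.22 to 2.29. Of the CD8SP value 95.4% was the RefSeq form, and 3.70 FPKM was an assembled 7-exon form of 6754 bases that ran 4688 bases past the RefSeq 3′ end across the neighbouring gene Fibp. Fibp lies on the opposite strand and overlaps the annotated Ctsw by 9 bases. Its own values were 9.67 FPKM in CD4SP and 7.29 FPKM in CD8SP, not called, and the sources used here do not give whether strand was used when transcripts were quantified.

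Prf1 (chr10:61297833-61304680, plus strand, 3 exons) was at 1.37 FPKM (interval 1.21 to 1.55) in CD4SP and 11.3 FPKM (interval 10.8 to 11.9) in CD8SP, 8.24-fold higher and a log2 ratio of 2.95. The RefSeq transcript was listed at 0 in both libraries. All of the Prf1 signal was assigned to 1 assembled chain of 3 exons that was the same in both lineages. Its first intron left the first exon at the annotated donor and entered the second exon 107 bases upstream of the annotated acceptor. That intron was not in GENCODE M21, and no transcript with the RefSeq first intron was given any FPKM in either library. RefSeq transcripts at 0 in a gene of 1 FPKM or more were found for 496 of 9119 genes (5.44%) in CD4SP and 414 of 9200 genes (4.50%) in CD8SP. Among the 10 genes these were Prf1 and Fasl in CD4SP and Prf1 in CD8SP.

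The splice sites of this Prf1 intron are shown because both short-read files used the same pair. The donor is from the RefSeq promoter and start sequence, and both acceptors are from a GENCODE M21 transcript of GRCm38. Capitals mark the first 2 bases of the intron at the donor and the last 2 at an acceptor.
Donor of exon 1, chr10:61297840-61297869, plus strand: ttggtgggacttcagGTaaggaggaggaag
Acceptor used in both short-read files, chr10:61299801-61299827, plus strand: cAGtggacgaagccagtccagctctgg
RefSeq acceptor, chr10:61299896-61299925, plus strand: tccctgttcccacAGctttccagagtttat

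The long-read library of CD8SP held 1 Prf1 isoform, and it bore on the same exon. The isoform had 3 exons and 2620 bases, was classed as holding at least 1 splice site that the reference lacked, and began 46 bases before and ended 8 bases short of the annotated gene. Its open reading frame of 554 amino acids was as long as that of the annotated GENCODE transcript of 3 exons and began at the same start codon. Its table gives no splice positions. With the annotated donor and downstream exons, its length placed the start of its second exon 1 base upstream of the short-read acceptor, and the table flagged it as having a non-canonical junction. Before the start codon, the RefSeq form had 55 bases, the assembled CD4SP form 190, the assembled CD8SP form 245 and the long-read isoform 212. The assembled and long-read forms thus all had more sequence before the annotated start codon than the RefSeq form. At the other end, the assembled forms ran 413 bases (CD4SP) and 470 bases (CD8SP) past the RefSeq transcript.

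**Figure D3:**
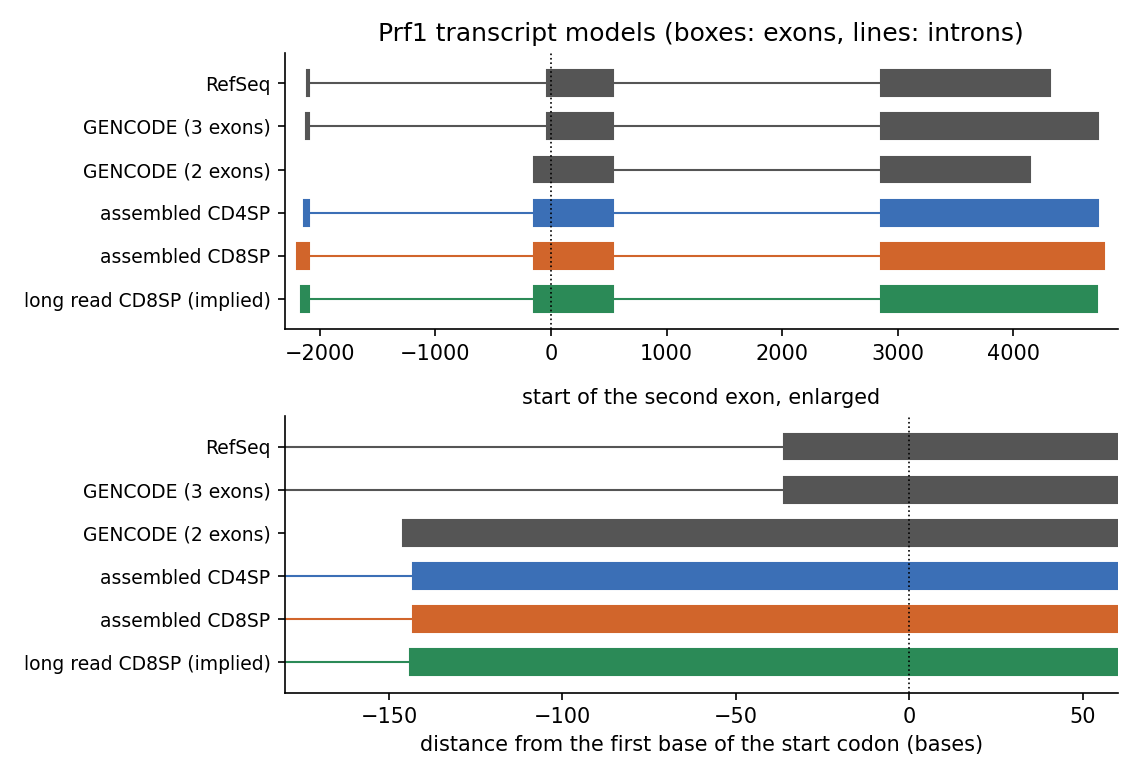
Exon models of Prf1 plotted as distance in bases from the first base of the start codon, with RefSeq and GENCODE in grey, the assembled forms in blue (CD4SP) and orange (CD8SP), and the long-read isoform in green as implied by its length, start and end. The lower panel enlarges the region and shows the second exon of the assembled and long-read forms starting upstream of that of RefSeq and the 3-exon GENCODE form, close to the start of the 2-exon GENCODE form.

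Granzymes are the serine proteases that perforin delivers, and of the 3 in the list only Gzmb was called. Gzmb (chr14:56258838-56262260, minus strand), which cleaves caspases and Bid, was at 3.13 FPKM (interval 2.46 to 3.79) in CD4SP and 0.478 FPKM (interval 0.340 to 0.671) in CD8SP. The listed FPKM was 6.54-fold higher in CD4SP, and the log2 ratio, after adding 0.1 FPKM to both values, was -2.48. The 4 introns all lay at least 2-fold towards CD4SP, from -1.86 to -2.54. In CD4SP the RefSeq transcript held 1.995 FPKM, and a 2-exon partial form at its 3′ side held 0.914 FPKM (29.2%). With RefSeq transcripts alone the values were 1.995 and 0.455 FPKM, so the order of the libraries did not rest on the partial forms.

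Gzma (chr13:113093825-113100981, minus strand), a tryptase, was at 1.04 FPKM (interval 0.674 to 1.41) in CD4SP and 1.69 FPKM (interval 1.37 to 1.99) in CD8SP. The intervals overlapped and the log2 ratio of 0.65 was under 2-fold. In CD4SP, 38.7% of the value (0.401 FPKM) sat on an assembled form with another first exon inside the RefSeq first intron, and 2 of its introns were not in GENCODE. On the RefSeq form alone Gzma was at 0.637 FPKM and 1.69 FPKM, a log2 ratio of 1.28 that met the call towards CD8SP. Gzma was thus called or not depending on whether this form was counted.

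Gzmm (chr10:79689020-79695261, plus strand) was the only one of the 10 under 1 FPKM in both libraries, at 0.328 FPKM in CD4SP (interval 0.270 to 0.403) and 0.388 FPKM in CD8SP (interval 0.277 to 0.517). The RefSeq transcript was listed at 0 in both. Most of its assembled transcripts began in the upstream gene Cdc34, which lies 621 bases away on the same strand and was at 4.95 and 7.66 FPKM. When transcripts that share introns with both genes were included, Gzmm reached 1.47 FPKM in CD4SP and 0.975 FPKM in CD8SP, still not called. The exon-based value, which weights each transcript by the share of the RefSeq exon bases it covers, was 1.65 and 1.19 FPKM. Reads of Cdc34 and Gzmm were thus not separated by the assembly.

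Srgn (chr10:62493833-62527451, minus strand) was among the most abundant transcripts of both libraries, at 68.2 FPKM (interval 65.7 to 71.4) in CD4SP and 91.6 FPKM (interval 89.4 to 95.5) in CD8SP. The intervals did not overlap, but the ratio was 1.34-fold and the log2 ratio 0.42, which became 0.21 after median scaling. Both introns lay within 2-fold. Serpinb9 (chr13:33003250-33017957, plus strand), whose product inhibits granzyme B in the cells that carry it, was at 3.70 FPKM (interval 3.07 to 4.29) in CD4SP and 3.24 FPKM (interval 2.82 to 3.67) in CD8SP. Its log2 ratio was -0.19 and all 6 introns lay within 2-fold. On RefSeq transcripts alone the values were 2.08 and 2.43 FPKM, so the sign of this uncalled ratio changed with the transcripts counted. Gzmb and Serpinb9 belong to families of similar neighbouring genes, and the sources used here do not give how reads matching several family members were assigned.

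Fasl (chr1:161780689-161788495, minus strand), the ligand of Fas, was at 1.50 FPKM (interval 1.31 to 1.72) in CD4SP and 0.111 FPKM (interval 0.0558 to 0.173) in CD8SP. The listed FPKM was 13.5-fold higher in CD4SP. After adding 0.1 FPKM to both values, about the size of the CD8SP value itself, the log2 ratio was -2.92. The CD4SP value sat on 1 assembled form with the 4 exons and introns of RefSeq that ended 606 bases past the RefSeq 3′ end. The 4-exon RefSeq transcript held the CD8SP value and was listed at 0 in CD4SP, so the RefSeq transcript alone gave the opposite order, with a log2 ratio of 1.08 at 0 and 0.111 FPKM. The exon-based value was 2.12 FPKM in CD4SP and 0.172 FPKM in CD8SP. It counts both forms and also unspliced single-exon fragments of at least 200 bases, of which Fasl had 3 in CD4SP and 4 in CD8SP. It was therefore above the spliced forms alone in both libraries. The 3-exon RefSeq form of Fasl was at 0 in both libraries.

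Beside the higher Gzmb and Fasl in CD4SP, some genes of natural killer and innate-like T cells also differed. Of 8 markers of those cells, 6 were measured, with a median log2 ratio of -1.79. Their summed FPKM was 19.9 in CD4SP and 36.0 in CD8SP, with Il2rb the largest part of both sums. Klrb1c, which encodes the receptor NK1.1, was at 3.26 FPKM in CD4SP and 0.268 FPKM in CD8SP, and Il17rb, a cytokine receptor found on some invariant T cells, at 3.66 and 0.365 FPKM. Il2rb, alone of the 6, was higher in CD8SP, at 12.2 and 35.3 FPKM, and Klra8 was at 0.102 and 0 FPKM. Ncr1, a defining receptor gene of natural killer cells, was at 0 in both libraries, and Zbtb16, the factor of invariant T cells, was at 0.622 and 0.0224 FPKM. Of 10 myeloid and mast cell markers, 4 were at 0 in both libraries, and the sum of all 10 was 2.86 FPKM in CD4SP and 1.03 FPKM in CD8SP. The sort took TCRβ+ cells, and its purity was not tested. The part of natural killer, innate-like T, myeloid or mast cells in the Gzmb and Fasl values was not tested.

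The calls were next set against exon-based values and single introns. With the exon-based value Nkg7 (12.0 and 172 FPKM), Cst7 (2.71 and 27.9), Ctsw and Prf1 (1.48 and 12.5) were again higher in CD8SP, beside 7.47% of 9785 genes, and Gzmb (2.68 and 0.462) and Fasl again higher in CD4SP, beside 3.38%. Of the 41 RefSeq introns of the 10 genes, 18 were at least 2-fold higher in CD8SP, 7 at least 2-fold higher in CD4SP, 14 within 2-fold, and 2 were at 0 in both. Over the 96763 RefSeq introns of all genes that reached 1 FPKM in at least 1 library, 9.13% were 2-fold higher in CD8SP and 3.80% in CD4SP; 39 of the 41 reached that level. The 18 belonged to Nkg7, Cst7, Ctsw, Prf1 and Gzma, and the 7 to Gzmb and Fasl. Introns of a gene share transcripts and are not replicates.

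**Figure D4:**
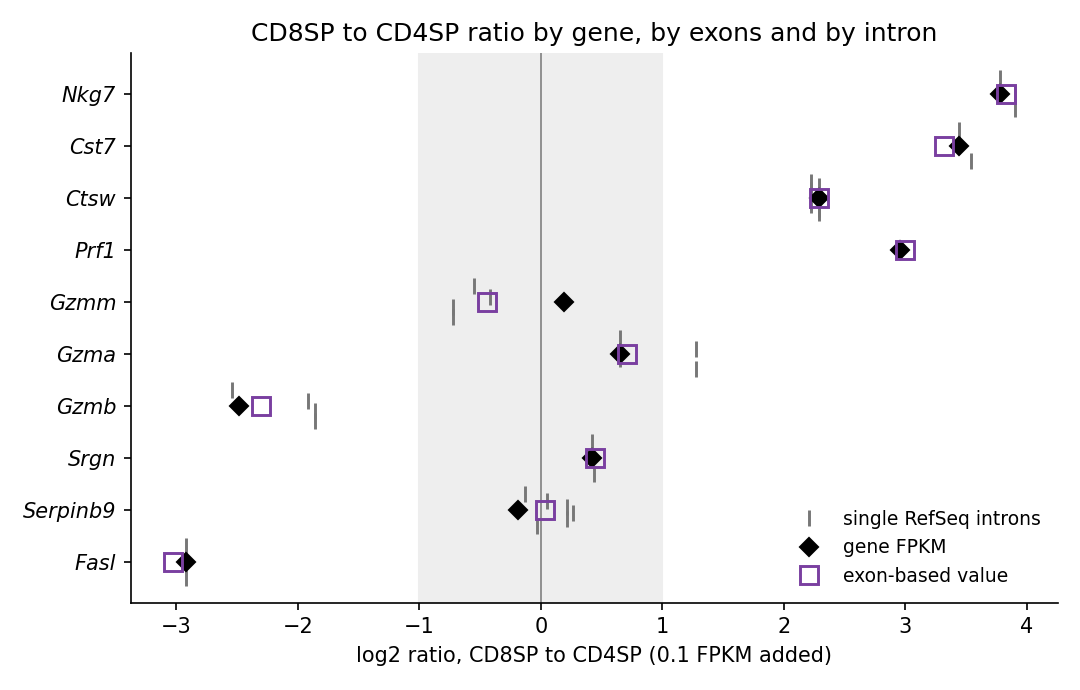
Log2 ratio of CD8SP to CD4SP for each gene from its gene FPKM (diamond), its exon-based value (open square) and each of its RefSeq introns not at 0 in both libraries (short vertical ticks). The grey band is 2-fold; the ticks of Nkg7, Cst7, Ctsw and Gzmb lie on the same side of the band as the gene, whereas Gzma has introns inside the band and outside it.

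The long-read tables list isoforms without read counts, so they show presence only. They held 8289 isoforms in CD4SP and 9476 in CD8SP, of which 3 and 2 were assigned to the 10 genes, and 1 in each lineage was spliced. No isoform of Nkg7, Cst7, Ctsw, Gzma, Gzmb, Serpinb9 or Fasl was listed in either lineage. Among all genes at 50 FPKM or more in CD8SP, 60.7% had an isoform, but of those with RefSeq transcripts under 1500 bases only 31.1% (50 of 161) had 1, against 77.7% (219 of 282) of the longer ones. Nkg7 (813 bases), Ctsw (1232 bases) and Srgn (938 bases) fall in the short class. An absent isoform of a short gene therefore resembled most short genes at that level. Prf1 (2054 bases) is longer but was at 11.3 FPKM in CD8SP and so outside that set. Among CD8SP genes at 10 FPKM or more with RefSeq transcripts of 1500 bases or more, 55.6% had an isoform.

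The spliced CD4SP isoform was of Gzmm, with 4 exons where the annotated transcript has 5, and an open reading frame of 224 amino acids. It began 2141 bases past the annotated start, inside the RefSeq first intron, and had 2498 bases against 1287 annotated. The genomic bases after its end were 5% A. The remaining sense isoforms were unspliced. A Gzmm isoform of 2181 bases in both lineages lay before a stretch of 85% A, and a Srgn isoform of 1071 bases in CD4SP before a stretch of 90% A. On the opposite strand, Gzmm had an isoform of 2165 bases in CD8SP, and Srgn had isoforms of 1081 bases in CD4SP and 1075 bases in CD8SP, each also before 90% A. Genomic A stretches can prime reverse transcription, and their part in these unspliced isoforms was not tested.

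Related genes were read from fixed lists, which were also chosen with earlier results of these data known. Of 30 genes of lysosomes and granule exocytosis, 27 reached 1 FPKM, 3 were higher in CD8SP and 1 was higher in CD4SP. Over the 9620 genes that reached 1 FPKM, 10.02% were higher in CD8SP and 4.76% in CD4SP (14.8% in either direction). Sytl3, which encodes a synaptotagmin-like partner of Rab27, was at 0.643 FPKM in CD4SP and 7.98 FPKM in CD8SP, whereas its relative Sytl2 was at 12.8 and 2.06 FPKM. Gnptg, of the mannose phosphate tag of lysosomal enzymes, was at 3.98 and 10.4 FPKM. Ctsc, the protease that activates granzymes, was at 21.6 and 45.7 FPKM, a call that was lost after median scaling. The median log2 ratio of the 27 genes that reached 1 FPKM was 0.23, beside 0.22 over the 9620 genes that did.

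Of 15 genes of death receptor signalling, 14 reached 1 FPKM and 2 were called, both towards CD8SP. Over all 9620 genes 14.8% were called in either direction, and 10.02% towards CD8SP. Bid, a granzyme B substrate, was at 1.70 and 3.81 FPKM in CD4SP and CD8SP, and the adaptor gene Tradd at 3.51 and 7.65 FPKM. Both calls were lost after median scaling, under which Cflar, an inhibitor of caspase activation at the receptor, was called towards CD4SP. The exon-based values of Cflar were 12.0 and 12.4 FPKM, not called. Fas, the receptor of Fas ligand, was at 12.7 and 11.8 FPKM, and this value was chosen after it was seen.

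Among 30 further effector genes of cytotoxic cells, 29 were measured and 19 reached 1 FPKM. By gene FPKM 6 were higher in CD8SP, beside 10.02% of the 9620 genes, and none was higher in CD4SP. By the exon-based value 7 were higher in CD8SP, with Cd160 and Cd226 added, and 1 was higher in CD4SP, Klrc1, at 1.31 and 0.274 FPKM. Itgae, the integrin that binds epithelial cadherin, was at 0.763 FPKM in CD4SP and 46.0 FPKM in CD8SP. Klrd1, the CD94 receptor chain, was at 3.70 and 32.2 FPKM, the chemokine gene Xcl1 at 2.83 and 23.4 FPKM, and Crtam, an adhesion molecule of cytotoxic cells, at 1.24 and 8.16 FPKM. Ccl4 was at 0.522 and 1.79 FPKM. Serpinb6b, the serpin gene next to Serpinb9 on its lower-coordinate side, was at 2.43 and 5.33 FPKM, a call lost with the exon-based value and after median scaling. The other granzyme genes of the list, Gzmc, Gzmd, Gzme, Gzmf, Gzmg, Gzmk and Gzmn, all stayed under 1 FPKM in both libraries.

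Of 14 regulators of the cytotoxic programme, 11 reached 1 FPKM. Runx3, which represses Cd4 in the CD8 lineage, was higher in CD8SP, at 3.15 and 9.23 FPKM. Eomes, a T-box factor of cytotoxic cells, was also higher in CD8SP, at 0.261 and 2.28 FPKM. The other T-box gene of the list, Tbx21, stayed under 1 FPKM, at 0.969 in CD4SP and 0.270 in CD8SP. It was named after its values were seen. Zbtb7b, the helper lineage factor ThPOK, was higher in CD4SP, at 22.5 and 0.0606 FPKM, as was Runx1, at 29.0 and 7.41 FPKM.

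**Figure D5:**
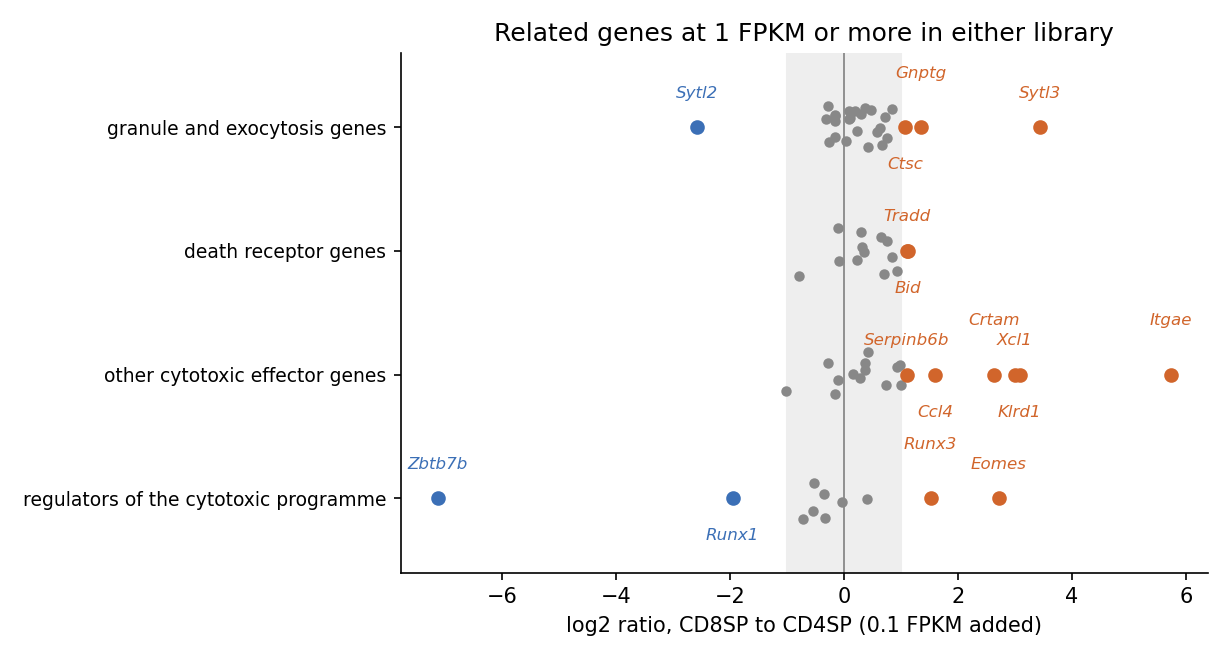
Log2 ratio of CD8SP to CD4SP of the listed genes that reached 1 FPKM in at least 1 library, 1 row per list. Orange genes were called higher in CD8SP, blue genes higher in CD4SP, grey genes were not called, and the grey band is 2-fold. Calls are 4 of 27 in the granule list and 6 of 19 among other effectors, beside 14.8% of the 9620 genes.

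The promoters of the genes that were called are shown so that they can be read beside the Runx and T-box genes. They come from the RefSeq promoter table of GRCm38.p6, which held 9 of the 10 genes (all but Ctsw) with 11 promoters. Each sequence is the 250 bases before the table's start site, on the strand of the gene, and capitals mark matches on either strand to a core of RUNX, T-box, ETS or AP-1 sites or to a TATA box, each spelled out beside its count. The table's Gzmb start lies upstream of that of the transcript in the short-read files.
Nkg7, chr7:43436888-43437137, plus strand: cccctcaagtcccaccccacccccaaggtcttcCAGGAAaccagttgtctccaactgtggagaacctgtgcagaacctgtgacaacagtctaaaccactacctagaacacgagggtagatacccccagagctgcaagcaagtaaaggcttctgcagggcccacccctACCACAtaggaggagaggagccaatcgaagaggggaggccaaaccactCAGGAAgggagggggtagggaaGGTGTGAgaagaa
Cst7, chr2:150570165-150570414, plus strand: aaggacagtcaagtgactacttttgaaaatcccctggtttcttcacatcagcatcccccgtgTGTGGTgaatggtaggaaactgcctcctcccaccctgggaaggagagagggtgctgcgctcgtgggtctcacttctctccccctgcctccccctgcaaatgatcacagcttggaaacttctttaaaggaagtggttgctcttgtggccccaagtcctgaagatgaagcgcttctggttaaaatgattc
Prf1, chr10:61297586-61297835, plus strand: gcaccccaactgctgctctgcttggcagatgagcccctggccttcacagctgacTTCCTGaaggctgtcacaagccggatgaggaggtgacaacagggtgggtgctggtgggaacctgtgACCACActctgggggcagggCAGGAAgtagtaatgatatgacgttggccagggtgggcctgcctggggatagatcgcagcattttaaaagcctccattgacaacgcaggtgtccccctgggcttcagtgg
Gzmb, chr14:56262335-56262584, minus strand: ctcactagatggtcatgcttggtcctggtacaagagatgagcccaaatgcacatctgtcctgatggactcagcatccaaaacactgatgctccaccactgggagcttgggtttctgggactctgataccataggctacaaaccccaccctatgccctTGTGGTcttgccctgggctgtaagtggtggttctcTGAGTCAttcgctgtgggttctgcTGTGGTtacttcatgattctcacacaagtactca
Fasl, chr1:161788496-161788745, minus strand: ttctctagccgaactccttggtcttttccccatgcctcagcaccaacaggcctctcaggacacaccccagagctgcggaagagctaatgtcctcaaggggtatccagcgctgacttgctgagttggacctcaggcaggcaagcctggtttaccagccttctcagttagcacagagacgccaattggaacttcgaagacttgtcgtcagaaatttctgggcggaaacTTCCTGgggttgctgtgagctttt

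The RUNX letters TGTGGT were found in 7 of the 11 promoters and in 14.05% (4614 of 32851) of all promoters of the table. They lay at -83 from the start in Nkg7, at -188 in Cst7, at -130 in Prf1, at -93 and -34 in Gzmb, at -50 in Gzma, and in 1 promoter each of Gzmm and Srgn. Among the called genes, Nkg7, Cst7 and Prf1 (higher in CD8SP) and Gzmb (higher in CD4SP) carried the match, and Ctsw had no promoter listed. Fasl had none within the window and Serpinb9 had no match to any of the 5 motifs. The T-box letters GGTGTGA were in 2 of the 11 promoters, those of Nkg7 at -13 and of Gzmm, beside 3.33% of all. The ETS letters CAGGAA were in 4 of 11, beside 25.7% of all, and lay in Nkg7 at -217 and -35, in Prf1 at -196 and -110, in Srgn at -82 and in Fasl at -24. The AP-1 letters TGANTCA were in 1 of 11, that of Gzmb at -58, beside 6.75% of all. The TATA letters TATAAA were in 1 of 11, a promoter of Srgn, beside 12.4%. A match of letters is a description and shows no binding.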

How the data were processed

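Gene levels come from 1 transcript file per lineage, in which the authors deposited FPKM values with intervals for RefSeq and assembled transcripts, the 4 lanes together. Cufflinks 2.1.1 and TopHat2 2.0.14, RSEM 1.3.1, GSNAP, Trimmomatic and FastQC, with the build GRCm38, are in the submitters' processing notes, which give no roles. The long-read tables give 1 classified isoform per row, with the percent of A in the genome after its end as deposited by the authors and empty read count fields. A further isoform table whose identifiers are paired with no gene names was not used.

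Transcript FPKM values were summed per gene with Python 3.11.15, NumPy 2.4.6 and pandas 2.3.3 (29511 of 30082 RefSeq accessions matched to a gene), and ratios were taken as log2(FPKM + 0.1), which understates the change of low genes. The interval of a sum adds the deposited bounds. The exon-based value counted transcripts of at least 200 bases that were not on the opposite strand, unspliced single-exon fragments included. Summing and calling were tested on simulated data. Total counts, and so depth, are not in the files used, and no test was made because each lineage has 1 pooled value. All 10 genes were named, and of each related list the called genes. A marker gene is not reported here. The genes and lists were chosen with earlier results of these data known. Figures were drawn with matplotlib 3.10.9. Splice sites and promoters were read from the RefSeq promoter table of GRCm38.p6 and from GENCODE M21 transcripts of GRCm38.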

Additional observations from a re-analysis of the deposited data

How the results depend on the processing

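The log2 ratio of each of the 10 genes was recomputed under 12 alternatives (other pseudocounts, minimum levels, fold threshold, no interval rule, median scaling, RefSeq transcripts only, exon-based and junction-based values, and, chosen after seeing the data, with transcripts shared with another gene). Settings with another minimum level, another fold threshold or no interval rule left every log2 ratio as it was and could alter only the call. The setting with shared transcripts changed only the ratio of Gzmm. Of 120 ratios, 115 kept their call or lack of one, a count that includes these unchanged ratios. Of the 115, 6, all uncalled, changed sign: 3 of Gzmm and 3 of Serpinb9. With a minimum of 5 FPKM, 0 genes were called higher in CD4SP, since Gzmb and Fasl then fell below it. With RefSeq transcripts only, 1 was (Gzmb), Prf1 gave a log2 ratio of 0, Gzma gave 1.28 and was called, and Fasl reversed to 1.08, because the assembled forms that held their signal were left out. The 4 calls towards CD8SP otherwise held. With the deposited bounds in place of the values, the median of the 10 ratios ranged from 0.14 to 1.09. Over all genes, the calls towards CD8SP and CD4SP were 622 and 259 with a pseudocount of 1, 247 and 183 at 4-fold, and 1312 and 1005 with no minimum. Long-read isoforms of these genes fell to 1 in CD4SP and 1 in CD8SP with spliced isoforms only, to 1 and 1 without those before 60% A or more, and to 1 and 0 with full and incomplete matches only. No replicate could be left out and no paired analysis was possible because each lineage has 1 pooled value and the shared lane numbers have no columns of their own. Without counts, what depth limits cannot be given.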

Other observations

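Of the 18 nearest protein-coding neighbours of the 10 genes that were measured, 2 were called, both towards CD8SP. Over the 9620 genes at 1 FPKM or more, 14.8% were called and 10.02% towards CD8SP. Besides the 2 called neighbours, only Apmap, Fibp, Adamts14, Cdc34, Bsg, Vps26a and Suco reached that level. The count over all 18 is therefore not on the same basis as these shares. Efemp2, 5446 bases from Ctsw, was at 0.0976 FPKM in CD4SP and 1.44 FPKM in CD8SP, and Serpinb6b, 24182 bases from Serpinb9, is described above. The genes on either side of Nkg7, Lim2 and Cldnd2, were at 0 and 0 FPKM and at 0.137 and 0.0949 FPKM. Gzmc, 24181 bases from Gzmb, was at 0.250 and 0.128 FPKM, and Suco, 27618 bases from Fasl, was at 21.9 and 15.3 FPKM. These neighbours, other than those called, were named after their values were seen.

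The B cell marker Cd79b was called towards CD8SP, at 0.583 FPKM in CD4SP and 5.49 FPKM in CD8SP, while Cd79a was at 0 in both by gene FPKM but had exon-based values of 7.05 FPKM in CD4SP and 0.248 FPKM in CD8SP, which met the call towards CD4SP. Of 10 myeloid and mast cell markers, H2-Ab1 was called towards CD4SP, at 1.32 and 0.254 FPKM. The haemoglobin gene Hbb-bs was at 3.67 and 3.17 FPKM.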
